A study of Mus musculus with 4 samples.

Results

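The synaptic vesicle release machinery is described here through 8 listed genes: Snap25, Stx1a, Vamp2, Nsf, Syt1, Syn1, Syn2 and Syp. Members were taken as every probe set that the platform annotation assigns to exactly 1 gene symbol, where that symbol is on the list. The rule found 7 of the 8 genes among 8251 named genes, through 8 of 12422 probe sets that are not controls. Vamp2 had 2 probe sets, and none was matched to Syn1. Each of the 8 had a mean signal above the median of all probe sets and belonged to the 6211 that were analysed. The samples were 4 pieces of mouse hippocampus, each measured as total RNA on 1 Affymetrix array, and they formed a single group. No strain, genotype, sex, age or treatment is given in the labels, nor whether the samples came from separate animals, so p-values measure only the spread between these samples, which may be technical. The series title presents them as replicates, and the question was how far the genes differed between replicate samples. The samples are called 1 to 4, names that carry no order.

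Neurotransmitter is released when a vesicle fuses with the plasma membrane of the nerve terminal. The vesicle protein synaptobrevin (Vamp2) pairs with syntaxin 1A (Stx1a) and Snap25 of the plasma membrane into the SNARE complex, and the ATPase Nsf takes used complexes apart again. Synaptotagmin 1 (Syt1) is the calcium sensor that triggers fusion, synapsins (Syn1, Syn2) tether vesicles in a reserve pool, and synaptophysin (Syp) is an abundant membrane protein of the vesicle. In the hippocampus these proteins serve excitatory and inhibitory terminals alike.

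To show the DNA in front of these genes, the 250 bases before the most upstream start in RefSeq (build GRCm38.p6) are printed for the 3 genes with the widest spread between samples (Syt1, Nsf and Syn2) and for a pair with a narrow spread (Syp and Stx1a). They lie at chr10:109010976-109011225 (minus strand), chr11:103954057-103954306 (minus), chr6:115134652-115134901 (plus), chrX:7638330-7638579 (plus) and chr5:135023232-135023481 (plus). Each runs 5′ to 3′ in the direction of the gene. Capitals mark matches on either strand to GGGCGG (the GC box), CCAAT and CACGTG (an E-box).

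Syt1: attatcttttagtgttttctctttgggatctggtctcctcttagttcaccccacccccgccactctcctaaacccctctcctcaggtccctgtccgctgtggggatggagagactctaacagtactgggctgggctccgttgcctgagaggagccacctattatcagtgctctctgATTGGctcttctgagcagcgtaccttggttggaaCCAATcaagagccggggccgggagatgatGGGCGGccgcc
Nsf: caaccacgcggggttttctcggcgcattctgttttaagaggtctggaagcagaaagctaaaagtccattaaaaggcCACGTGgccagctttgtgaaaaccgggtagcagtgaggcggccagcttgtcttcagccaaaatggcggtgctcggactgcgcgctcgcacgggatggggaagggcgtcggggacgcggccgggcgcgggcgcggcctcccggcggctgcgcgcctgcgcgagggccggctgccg
Syn2: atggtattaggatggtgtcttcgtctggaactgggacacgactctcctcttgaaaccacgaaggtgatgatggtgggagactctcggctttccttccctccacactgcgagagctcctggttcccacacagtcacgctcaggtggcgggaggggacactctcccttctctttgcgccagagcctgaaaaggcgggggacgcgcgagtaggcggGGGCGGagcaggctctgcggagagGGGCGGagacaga
Syp: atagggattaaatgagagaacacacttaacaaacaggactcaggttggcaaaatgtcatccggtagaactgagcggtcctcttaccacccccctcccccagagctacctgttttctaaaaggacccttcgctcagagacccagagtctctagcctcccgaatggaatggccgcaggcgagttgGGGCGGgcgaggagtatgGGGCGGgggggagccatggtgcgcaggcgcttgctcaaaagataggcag
Stx1a: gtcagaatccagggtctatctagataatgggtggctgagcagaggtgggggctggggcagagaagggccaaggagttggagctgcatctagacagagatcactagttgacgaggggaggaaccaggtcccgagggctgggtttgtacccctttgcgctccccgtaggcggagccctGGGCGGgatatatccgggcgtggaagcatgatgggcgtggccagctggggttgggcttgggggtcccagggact

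The 6 letters GGGCGG occurred in 32.7% of all 32851 RefSeq promoter windows of this length, CCAAT in 33.8% and CACGTG in 6.02%. Syt1 held 1 GGGCGG and 2 CCAAT matches, Syn2 held 2 GGGCGG, Syp held 2, Stx1a held 1, and Nsf held 1 CACGTG. No marked match overlapped another. TATAAA, found in 12.4% of windows, the cyclic AMP element TGACGTCA, found in 1.55%, and TTCAGCACC, the left part of the REST element, found in 0.301%, were also searched on both strands and matched none of the 5 windows. The window of Syn1, which had no probe set and is not printed, held 1 match each to TGACGTCA and TTCAGCACC. These matches describe letters and not bound sites, and the genes with wide and with narrow spread both included windows with GGGCGG.

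Sample 4 stood somewhat apart on the arrays as a whole. Pearson's r, taken across probe sets that are not independent replicates, was 0.944 to 0.953 among samples 1, 2 and 3 and 0.912 to 0.929 between each of them and sample 4. Control transcripts are read at both ends, and a high 3′ signal relative to the 5′ signal is a sign of shortened RNA or cDNA. For 4 of 5 such transcripts this quotient peaked in sample 4, with 1.84, 1.64, 1.51 and 2.03 for beta-actin in samples 1 to 4. Markers of neurons were present in all samples, with 11 of 12 listed genes analysed. Among 10 hippocampal subfield genes looked up after values had been seen, Calb1 gave 522 to 665 units and the granule cell gene Dsp 199 to 375 units by 1 probe set. A second Dsp probe set (1.18 to 8.03 units) and Prox1 were too low for analysis. Wfs1 gave 449 to 725 units, Zbtb20 518 to 801, Bok 621 to 911, Neurod2 622 to 909 and Neurod1 114 to 152. Tdo2 gave 78.5 to 141 units by 1 probe set, another was too low for analysis, and none was matched to Grp. Signals are in quantile normalized array units. In such bulk tissue, fewer nerve terminals or neurons and less RNA per cell cannot be told apart.

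Transcripts of the plasma membrane SNAREs varied little between the samples. Snap25, the plasma membrane SNARE that contributes a pair of helices to the complex, read 8517 units in sample 1, 8169.7 in sample 2, 9251 in sample 3 and 7326 in sample 4, with a mean of 8316 ± 799 (SD, n = 4). Sample 3 was highest and sample 4 lowest, and the whole range was 1.26-fold. This range was 1.38-fold in the deposited values and 1.32-fold with median scaling. Stx1a, its membrane-anchored partner, gave 644, 728, 633 and 575 units (645 ± 63.1, SD, n = 4), a 1.27-fold range with sample 2 highest. The SD of Snap25 was 1.13 times the trend at its signal and that of Stx1a 0.676 times, and neither gene passed the variance test (limma, adjusted p = 0.994 for both).

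Vamp2, the vesicle SNARE, was read by 2 probe sets that did not give the same picture. Probe set 98926_at gave 5337, 5159, 5594 and 5401 units (5373 ± 179.6, SD, n = 4), which is the narrowest range of the 8, at 1.08-fold. Of all analysed probe sets, 1.95% had a range at most as narrow. This range depends on the scaling: it was 1.17-fold in the deposited values and 1.26-fold with median scaling, where those of Stx1a (1.11-fold) and Syp (1.21-fold) were narrower. Probe set 98925_at gave 716, 573, 430.4 and 478 units (549 ± 126, SD, n = 4), highest in sample 1 and lowest in sample 3, a 1.66-fold range. The log2 ratio of the probe sets to each other moved by 0.80 over the samples, a 1.74-fold change within arrays (1.83-fold in the deposited values). Which of them follows the Vamp2 transcript more closely was not tested.

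Nsf, the ATPase that recycles SNARE complexes, gave 2433, 1018, 2046 and 2606 units (2026 ± 712, SD, n = 4). Samples 1, 3 and 4 lay within 1.28-fold of one another when sample 2 was left out, and sample 2 lay below all of them, which widened the range to 2.56-fold (1.36 log2 units). Its SD was 3.66 times the trend at its signal, with an unadjusted p of 0.00711 and an adjusted p of 0.560 (limma variance test over 6211 probe sets). The gene in sample 2 lay 1.21 log2 units below the mean of the other samples, whereas Snap25 and Stx1a, its substrates, lay at -0.03 and 0.24 there.

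**Figure D1:**
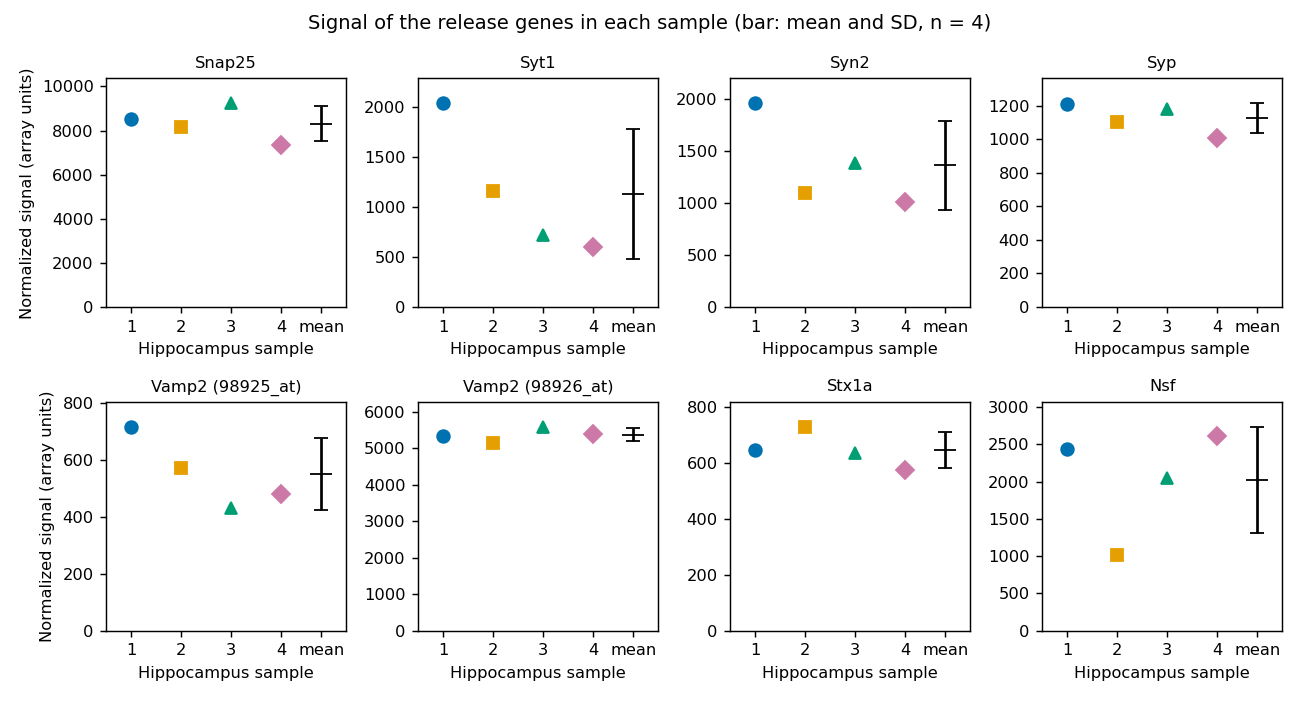
Normalized signal in array units (vertical axes from 0) of the 8 probe sets in hippocampus samples 1 to 4, with the mean and SD over the 4 samples as a bar. Snap25, Syp, Stx1a and Vamp2 probe set 98926_at stay level, Syt1 runs from 2039.9 units in sample 1 to 605 in sample 4, and Nsf is low in sample 2 at 1018 units.

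Syt1, the calcium sensor, differed most. Its signal was 2039.9 units in sample 1, 1160.2 in sample 2, 718 in sample 3 and 605 in sample 4 (1131 ± 652, SD, n = 4), a 3.37-fold range or 1.75 log2 units. Sample 1 was above every other sample and samples 3 and 4 were low. Only 3.06% of the analysed probe sets had a range at least as wide. Its SD was 4.08 times the trend, with an unadjusted p of 0.00430 and an adjusted p of 0.515 (limma variance test). The range was 1.92-fold without sample 1 and 2.86-fold without sample 4.

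The synapsin gene Syn2 gave 1962, 1092.5, 1382 and 1013 units (1362 ± 430.0, SD, n = 4). Sample 1 was again the highest, and the range was 1.94-fold, with an unadjusted p of 0.0465 and an adjusted p of 0.839 (limma variance test). Without sample 1 the range fell to 1.36-fold. Synaptophysin (Syp), often used to count synapses, gave 1212, 1103, 1178 and 1008 units (1125 ± 90.4, SD, n = 4), a 1.20-fold range. Its SD was 0.624 of the trend. The vesicle proteins thus ranged from steady (Syp) to wide (Syt1): the log2 ratio of Syt1 to Syp moved by 1.49 over the samples (2.81-fold), which shows unequal change within the arrays.

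Against all probe sets, none of the 8 passed the variance test after adjustment, and 0% of the 6211 did (limma, smallest adjusted p = 0.316). At an unadjusted p under 0.05 there were 3 of 8, namely Syt1, Nsf and Syn2, beside 5.86% of all analysed probe sets. This number was 1 without sample 1 (Nsf), beside 5.22% of all, and 2 without sample 2 (Syt1 and Syn2), beside 5.43%. It was 3 without sample 3 or sample 4, beside 5.89% and 5.1%. Of the 8, 2 spanned 2-fold or more, Syt1 and Nsf, beside 14.4% of all, and a range under 1.5-fold for 4 of 8, beside 56.2%. Leaving out sample 1 or sample 2 left 1 of 8 at 2-fold or more, Nsf or Syt1 respectively, beside 10.5% and 11% of all. Leaving out sample 3 or sample 4 left both, beside 10.3% and 6.65% of all. With so few arrays, an adjusted p above the threshold does not show that the samples were alike. The trend was fitted to these same probe sets, so the test shows only which stand out from the rest. A low count follows in part from that.

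**Figure D2:**
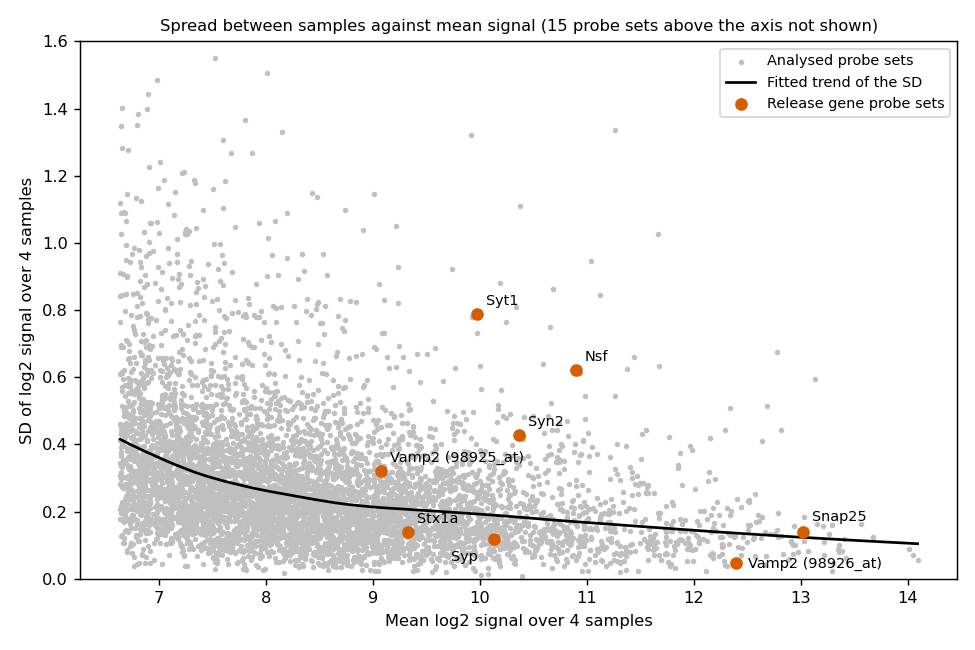
SD of the log2 signal over the 4 samples (vertical axis) against the mean log2 signal (horizontal axis) of 6211 analysed probe sets, with the fitted trend as a line and the release gene probe sets named; 15 probe sets lie above the axis. Syt1 and Nsf lie far above the line, at 4.08 and 3.66 times the trend, and Syp, Stx1a and Vamp2 probe set 98926_at lie below it.

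By sample, the genes leaned high in sample 1 and low in sample 4. In sample 1, 7 of 8 probe sets exceeded the mean of the remaining samples, beside 51.4% of all analysed probe sets, and 4 of 8 had their highest value there, beside 24.7%. With the deposited values, 6 of 8 exceeded it, beside 50% of all. For Stx1a and Snap25 this excess was 0.00 and 0.05 log2 units. In sample 4, 6 of 8 were below the mean of the others, beside 47.8%, and 5 of 8 had their lowest value there, beside 30.6%. With each array scaled to a shared median, 3 of 8 were lowest in sample 4, beside 23.9% of all. In sample 2, 4 of 8 were lowest with that scaling, beside 33.3%. There, 62.5% of all probe sets lay below the mean of the others, against 48.9% with quantile normalization. The median deviation of the 7 genes, each by its brighter probe set, was 0.15, -0.03, 0.09 and -0.21 log2 units in samples 1 to 4, against 0.01 to 0.02 over all analysed probe sets. Without sample 4, 5 of 8 probe sets were above the others in sample 1, beside 51.7% of all. The median over the genes in sample 1 was then 0.09.

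Markers of neurons leaned the same way. Of 11 analysed neuronal markers, 8 were above the others in sample 1 (median 0.22 log2 units) and 8 were below in sample 4 (median -0.19), with summed signals of 22370, 20544, 20992 and 19074 units in samples 1 to 4. With median scaling, 5 of 11 were above the others in sample 4 (median -0.06), beside 60.7% of all analysed probe sets. The median range of these markers was 1.33-fold. The widest, 4.78-fold, was that of Map2, a protein of dendritic microtubules (305, 171, 187 and 63.9 units). Astrocyte markers were below the others in sample 1 for 8 of 9 genes (median -0.13; summed signals 23213 to 26530 units), and oligodendrocyte markers for 6 of 7 (median -0.17; 9586 to 13096 units). The latter had medians of 0.36, -0.37 and 0.33 in samples 2, 3 and 4, with 7 of 7 below the others in sample 3. Microglial markers summed to 2988 to 3684 units and vessel markers to 662 to 947 units. Choroid plexus markers summed to 1092 to 2781 units and erythroid markers to 4525 to 14124 units. The vessel, choroid plexus and erythroid sums were all highest in sample 1. By gene, 2 of 4 vessel, 1 of 2 choroid plexus and 3 of 3 erythroid markers were above the others there. The part of cell makeup, and of the higher 3′ to 5′ ratios in sample 4, in the values of the release genes was not tested.

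**Figure D3:**
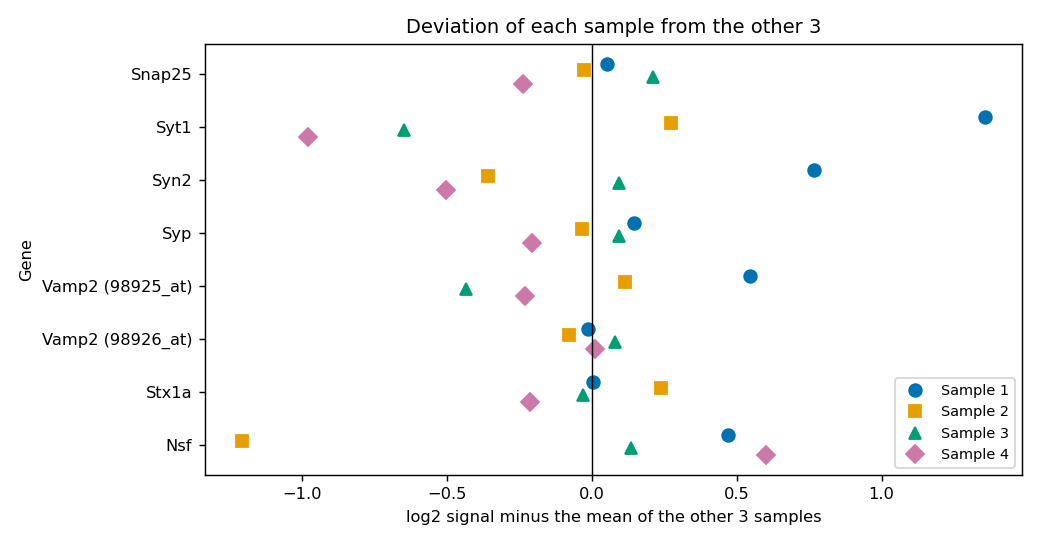
Difference in log2 signal between each sample and the mean of the remaining 3 (horizontal axis) for each release gene probe set (rows), with 1 symbol per sample. Sample 1 lies furthest right for Syt1 at 1.36 and Syn2 at 0.77, sample 4 lies left for 6 of 8 probe sets, and Nsf in sample 2 lies at -1.21.

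The members differed from one another in pattern. Snap25 and Syp had the closest profiles, with a root mean square difference of 0.06 log2 units after each was centred on its mean, and Syt1 and Nsf the most distant, at 0.93. Syt1 and Syn2, both highest in sample 1, still differed by 0.46. This difference is not scaled to the range, so narrow profiles lie close together and wide ones have few neighbours. Within 0.2 log2 units lay 4 of the other 6210 analysed probe sets for Syt1, 20 for Nsf and 190 for Syn2. For Snap25, whose deviations are small in log2 units, there were 2348. These counts follow the range and do not show how rare a pattern is. The genes nearest to Syt1 were Arhgef2 (587, 304, 234 and 153 units), Sec23a (483, 272, 212 and 168 units), a coat protein of vesicles leaving the endoplasmic reticulum, and Os9 (199, 144, 94.1 and 76.9 units), a lectin of the same compartment. Nearest to Nsf were Acsf3 (316, 141, 289 and 365 units), Zfp35 and the ubiquitin-conjugating enzyme Ube2k, and nearest to Syn2 were Cops2 (225, 136, 175 and 123 units), the lysosomal sulfatase Ids and the carbonic anhydrase Car12. Over 4 samples such likeness is a description only.

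Regulators of the SNARE machinery had a wider median range. Of 19 listed, 8 were analysed, with a median range of 1.98-fold against 1.44-fold over all analysed probe sets and 1.27-fold over the 7 release genes. These ranges are not scaled to signal, and the trend of the SD was 0.32 log2 units at Doc2b and 0.12 at Snap25. Mean signals ran from 163 units (Doc2b) to 2035 (Cadps) for the regulators and from 645 (Stx1a) to 8316 (Snap25) for the release genes. The part of signal in the wider range was not tested. None passed the variance test after adjustment (limma), 3 had an unadjusted p under 0.05 and 4 ranged at least 2-fold. Rab3a, a GTPase of the vesicle surface, was lowest in sample 1 (87.5, 178, 360.4 and 255 units), a 4.12-fold range with an adjusted p of 0.660 (limma). The complexins, which clamp and activate SNARE complexes, took opposite courses. Cplx1 gave 2182, 1934, 1572 and 1084 units and was lowest in sample 4, while Cplx2 gave 720.1, 649.6, 1205 and 1266 units and was highest there. The SNAPs that bring Nsf to the complex, Napa (1288, 1363, 1594 and 1433 units) and Napb (656, 741, 1022 and 899 units), did not have their lowest value in sample 2 as Nsf did. A second Napb probe set differed from the first in sample 4, where it was lowest (522, 553, 1135 and 278 units). The calcium-binding protein Doc2b (222, 165, 100.1 and 164 units) ranged 2.22-fold.

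Other vesicle proteins were analysed for 12 of 26 listed genes, of which 2 ranged at least 2-fold, 2 had an unadjusted p under 0.05 and none passed after adjustment (limma). The GABA transporter of vesicles, Slc32a1, gave 376, 1074, 272 and 1139 units (adjusted p = 0.371, limma). The proton pump subunit Atp6v0a1 gave 1617, 1261, 747 and 735 units, highest in sample 1 and low in samples 3 and 4 as Syt1 was. Among relatives of Syt1, Syt11 gave 1641, 1299, 1153 and 1059 units, with the same order of samples, and Syt5 gave 1158, 1154, 1260.2 and 948 units. The other 3 analysed synaptotagmins followed other orders. Syt2 was lowest in sample 1 (229, 329, 282 and 319.5 units), and Syt3 (567, 423, 330 and 625.5 units) and Syt4 (135, 111.5, 180.1 and 219 units) were highest in sample 4.

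Endocytosis genes, which retrieve the vesicle membrane, were mostly steady, with 13 of 16 analysed genes under 1.5-fold and a median range of 1.27-fold. The other 3 were the adaptor subunits Ap2b1 and Ap2a1 and the endophilin gene Sh3gl1. Ap2b1 gave 494, 397, 209.8 and 42.0 units, an 11.8-fold range with an adjusted p of 0.360 (limma). This range rests largely on sample 4, where the signal was near the floor of 27.7 units. Ap2a1 gave 545, 415, 262 and 505 units, a 2.08-fold range, and Sh3gl1 ranged 1.55-fold. Snap91 gave 647 to 672 units. Of 4 analysed active zone genes, the calcium channel subunit Cacna1a gave 177, 292, 149 and 98.6 units and the scaffold kinase Cask 271 to 350.4 units.

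Other SNAREs and related genes, among them Stxbp2, Stxbp3 and Sypl, were analysed for 20 of 30 listed genes. Their median range was 1.5-fold, with 3 at 2-fold or more and 2 with an unadjusted p under 0.05 (limma variance test). Vamp1, a relative of Vamp2, gave 351, 196, 165 and 102 units, highest in sample 1 and lowest in sample 4. A dimmer probe set of Vamp1, too low for analysis, was highest in sample 4 (50.7, 19.8, 37.6 and 72.6 units). Vamp3, another relative, gave 138, 97.1, 123 and 112 units and was lowest in sample 2. The syntaxin gene Stx2 gave 392, 313, 516 and 149.99 units, and the Golgi SNARE gene Gosr1 gave 122, 229.5, 118 and 61.7 units.

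**Figure D4:**
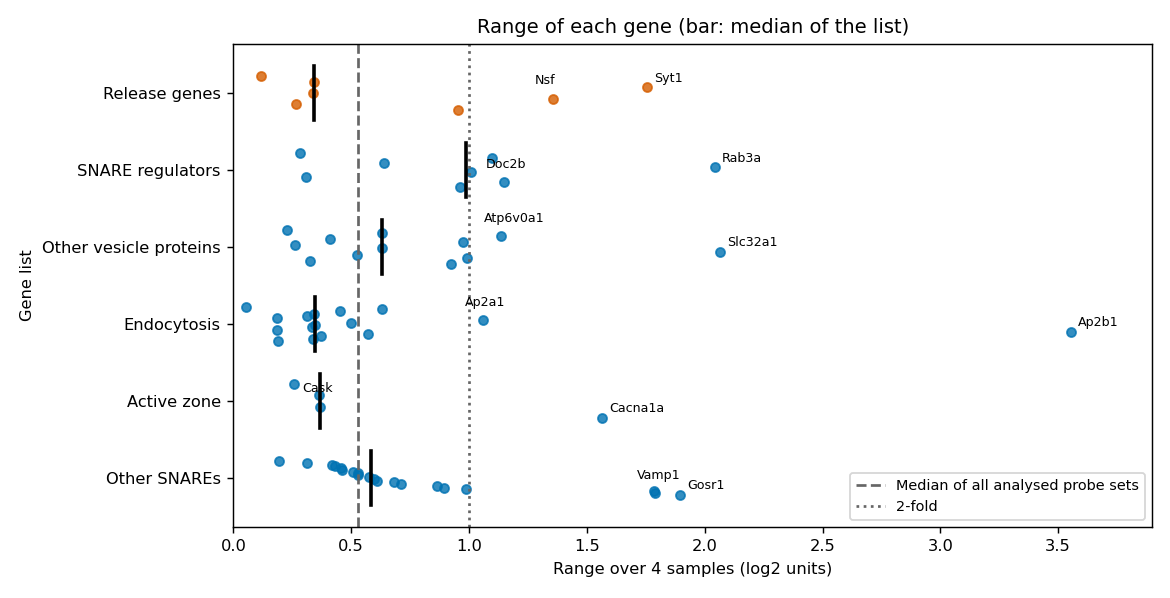
Range over the 4 samples in log2 units (horizontal axis) of each analysed gene in the release genes and 5 related lists, with the median of each list as a bar, the median of all analysed probe sets (0.53) as a dashed line and 2-fold as a dotted line. The regulators have the median farthest right, at 0.99, and the release genes have Syt1 and Nsf beyond 2-fold with the other 5 genes below it.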

How the data were processed

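The deposited table holds linear intensities, 1 per probe set and array, for 4 arrays. The software that made the intensities before deposit is not given in the sources used here, but the mean without the lowest and highest 2% was 250.1 units on each array, so the authors' values had been scaled. No detection calls or probe-level data entered. Of the probe sets, 66 controls were left out. The rest were brought to shared quantiles (limma 3.58.1, R 4.3.3), set to at least their 25th percentile (27.7 units) and taken to log2. Those whose mean log2 signal exceeded the median of all means were analysed. The variance of each was divided by that of a robust intensity trend, fitted with limma's empirical Bayes functions. The quotient was read against an F distribution (one-sided), with 3 degrees of freedom of its own and 5.20 of the prior, their median. P-values were adjusted by Benjamini-Hochberg over all 6211 at 0.05. In the limma variance test named above, limma thus gave the trend and prior, and the F comparison was added to it. Genes in lists stand by their brightest probe set. Symbols came from the platform annotation, updated through RefSeq for 10817 of 10833 probe sets with 1 symbol. Named were all members, the 2 widest genes of each related list, close relatives, and the 3 nearest profiles of each member ranging at least 1.5-fold. Cplx1, Cplx2, Napa, Napb, Snap91, Stx2, Map2 and the subfield genes were added after their values had been seen. The members and lists were chosen with earlier results of these data known. RefSeq promoter windows matched 6 of 8 listed genes (not Snap25 and Vamp2).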

Additional observations from a re-analysis of the deposited data

Results flagged for a closer look

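The ubiquitin-conjugating enzyme gene Ube2k, named for its likeness to Nsf, gave 547, 202, 468 and 523 units in samples 1 to 4. On the log2 scale, its value in sample 2 (202 units) lay far from the others. The gap took up 0.845 of the whole log2 range, above the critical value of Dixon's test for 4 samples. In the units printed, the gap is a smaller share of the range, so the flag holds for log2 values only. Ube2k was chosen for a profile like that of Nsf, which was itself low in sample 2, so the gap is partly fixed by that choice. Of 27 probe sets checked in this way, 1 passed, and about 1 in 20 would by chance.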

How the results depend on the processing

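No paired analysis was possible because the samples form 1 group. No probe set, member or other, passed the variance test under any setting tried. These were the deposited values as given, median scaling, a floor at the 10th percentile and no signal filter. A trend without the robust option and any 3 of the samples were also tried. Each time the trend was fitted to the same probe sets that were tested, so the absence of calls follows in part from the test. The smallest adjusted p among the members was 0.376 to 1 over these settings. The number of member probe sets with a 2-fold range was 2, 3 with median scaling (Syn2 added) and 1 to 2 when 1 sample was left out. The share of all probe sets with such a range was 14.4%, 15.2% with median scaling and 22.6% with no signal filter. It was 6.65% to 11% when 1 sample was left out. The median deviation in sample 1 rose from 0.15 to 0.27 when a gene stood by the median of its probe sets, which changes Vamp2 only. Median scaling moved the median deviation in sample 2 from -0.03 to -0.18 and in sample 4 from -0.213 to -0.0796, and the cause was not tested. When 1 sample was left out, the median deviations kept their signs and ranged from 0.09 to 0.21 in sample 1, -0.113 to -0.0029 in sample 2, 0.02 to 0.16 in sample 3 and -0.25 to -0.20 in sample 4. The order of the samples was the same with the deposited values for all 8 probe sets, and with median scaling it changed for 3 of 8 (Syn2, Syp and Vamp2 probe set 98926_at). With no signal filter, 2 of 8 members had an unadjusted p under 0.05 (limma variance test), beside 2.96% of all probe sets. Having only 4 arrays limits precision, and signal near the floor may be background.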
